A study of Sus scrofa with 50 samples.

Results

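The S100 family is described here through 10 Swiss-Prot entries: S10A8 and S10A9 (the subunits of calprotectin), S10AC (calgranulin C), S115A, S10A1, S10A4, S10A6, S10AA, S10AB and S100B. The entries were chosen by name, and transcripts per 1000000 (TPM) were summed over all assembled transcripts whose best Swiss-Prot match in the deposited annotation carried that name. A transcript was found for 9 of the 10 entries, 17 transcripts of 57085 in all; no transcript had S10A1 as its best match. The summed table held 35133 genes, of which 14532 were Swiss-Prot entries and the others were transcripts without one. The family was picked with results of these libraries already known, and which values were used in picking it is not given in the sources used here, so the tests below describe these libraries and are no independent support for the choice.

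The series profiled Korean minipigs of the ET type and the L type by RNA-seq against a transcriptome assembled de novo. Heart, kidney, liver, lung and spleen of 10 animals were analysed, 5 of the ET type (S0235, S0242, S0276, S0309 and S0326) and 5 of the L type (S0349, S0355, S0377, S0384 and S0385), which gave 50 libraries. The labels name no treatment, age or sex, and do not say what the letters ET and L stand for. Within a type, values per animal follow the order of these names.

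S100 proteins are small calcium-binding proteins with a pair of EF hands, and most of them work as dimers. In mammals S100A8 and S100A9 pair as calprotectin, which neutrophils and monocytes hold in their cytosol in large amounts, release at sites of inflammation, and which starves microbes of zinc and manganese and is a ligand of TLR4 and RAGE. Other members act inside the cell: S100A10 binds annexin A2 at membranes, S100A11 binds annexin A1, S100A6 binds the calcyclin-binding protein, S100A4 binds non-muscle myosin in motile cells, S100A1 tunes calcium handling in heart muscle, and S100B is best known from glia.

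Tissue labels matched their defining genes in 49 of the 50 libraries. The heart gene MLRV (ventricular myosin light chain) was at 11460 to 51620 TPM in hearts and at most 62.8 TPM elsewhere. The liver gene ALBU was at 55180 to 174600 TPM in livers and at most 53.1 TPM elsewhere, and the lung surfactant gene PSPC was at 377.3 to 17810 TPM in lungs and at most 0.662 TPM elsewhere. The erythroid gene HEM0 was at 43.6 to 2480 TPM in spleens and at most 6.76 TPM elsewhere. The kidney gene UROM was at 230 to 5281 TPM in 9 kidneys and at 0.179 TPM in the kidney library of S0235, where T cell markers summed to 3249 TPM; that library is shown apart and was left out of the fits. Spleen libraries differed in red cell RNA: the summed TPM of alpha- and beta-globin (HBA and HBB) was 109200, 178600, 333300, 156300 and 289700 in ET spleens, against 135100, 148200, 5432, 53800 and 12300 in L spleens. TPM carry no read counts, so the depth behind each value is unknown and no counting interval is given.

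Of the 10 entries, 8 have a RefSeq gene on chromosome 4 of the pig assembly Sscrofa11.1, within bases 96007026 to 97272517. S100A8 lies at 96209670 to 96210603, S100A12 at 96225691 to 96227030 and S100A9 at 96236114 to 96238989, so that the S10AC gene sits between both calprotectin genes. S100A4 and S100A6 are neighbours, at 96088102 to 96091160 and at 96098264 to 96099686, and S100A11 (97233833 to 97239081) and S100A10 (97261752 to 97272517) lie at the far end. S100B is placed on an unplaced sequence. These are whole gene spans; the files give TPM for assembled transcripts and no exon positions.

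Most transcripts matched their entries over most of the protein. The exceptions were a minor S10AC transcript (0.759% of its TPM), which matched residues 1 to 46, and an S100B transcript with 10.15% of its TPM, which matched bovine S100B at 64.6% identity; the leading S100B transcript (88.3%) matched it at 97.8%. S10AC and S10AB matched the pig protein at 100% identity, and S10A6 matched it at 97.8% to 98.9%. S10A8 matched the bovine protein at 83.1% and S10A9 at 84.7%. S10A4 matched the human protein at 99.0% and S10AA the rabbit protein at 99.0% and 100%. A single transcript carried 96.9% of S10A9 TPM, 99.2% of S10AC TPM and 97.8% of S10AA TPM, while S10A8 was split over 2 transcripts (55.9% and 44.1%) and S10A6 over 3 (47.8%, 28.7% and 23.5%). How reads were shared between such near-identical transcripts is set by the quantification, so the sums are firmer than their parts. S115A rested on 1 transcript of 919 bases, assembled from spleen, whose best match was an orangutan protein named S100-A15A at 81.1% identity; it was not paired with a RefSeq gene, and its role in pigs is not given here.

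Across tissues the S100 entries fell into distinct patterns: S10A8, S10A9 and S10AC were highest in lung, S115A was found almost wholly in spleen, S10AB was highest in spleen, and the others had shared leads. The highest tissue passed the next one in 5 of the 9 entries (S10A8, S10A9, S10AC, S115A and S10AB), by limma on log2(TPM + 1) over 49 libraries with p-values adjusted over all genes by the Benjamini-Hochberg method, at adjusted p under 0.05. S115A passed the filter of a mean of 1 TPM over the 49 libraries through spleen alone, so its place in that count was fixed by the filter and supports nothing. Under median-ratio scaling, where the order of tissues can change, the count was 6. Tissue differences were the rule in these libraries. Of all 29725 genes tested, 80.1% differed between heart and lung, 66.4% between heart and kidney, 66.4% between kidney and liver, 66.2% between lung and spleen, 62% between kidney and lung, 60.1% between liver and spleen, 57.6% between kidney and spleen, 55.3% between heart and spleen and 53.8% between heart and liver. A passed difference between tissues is therefore close to the background of the whole table, and the sizes and orders below carry the description. In whole tissue, fewer cells of a type and less RNA per cell cannot be told apart.

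**Figure D1:**
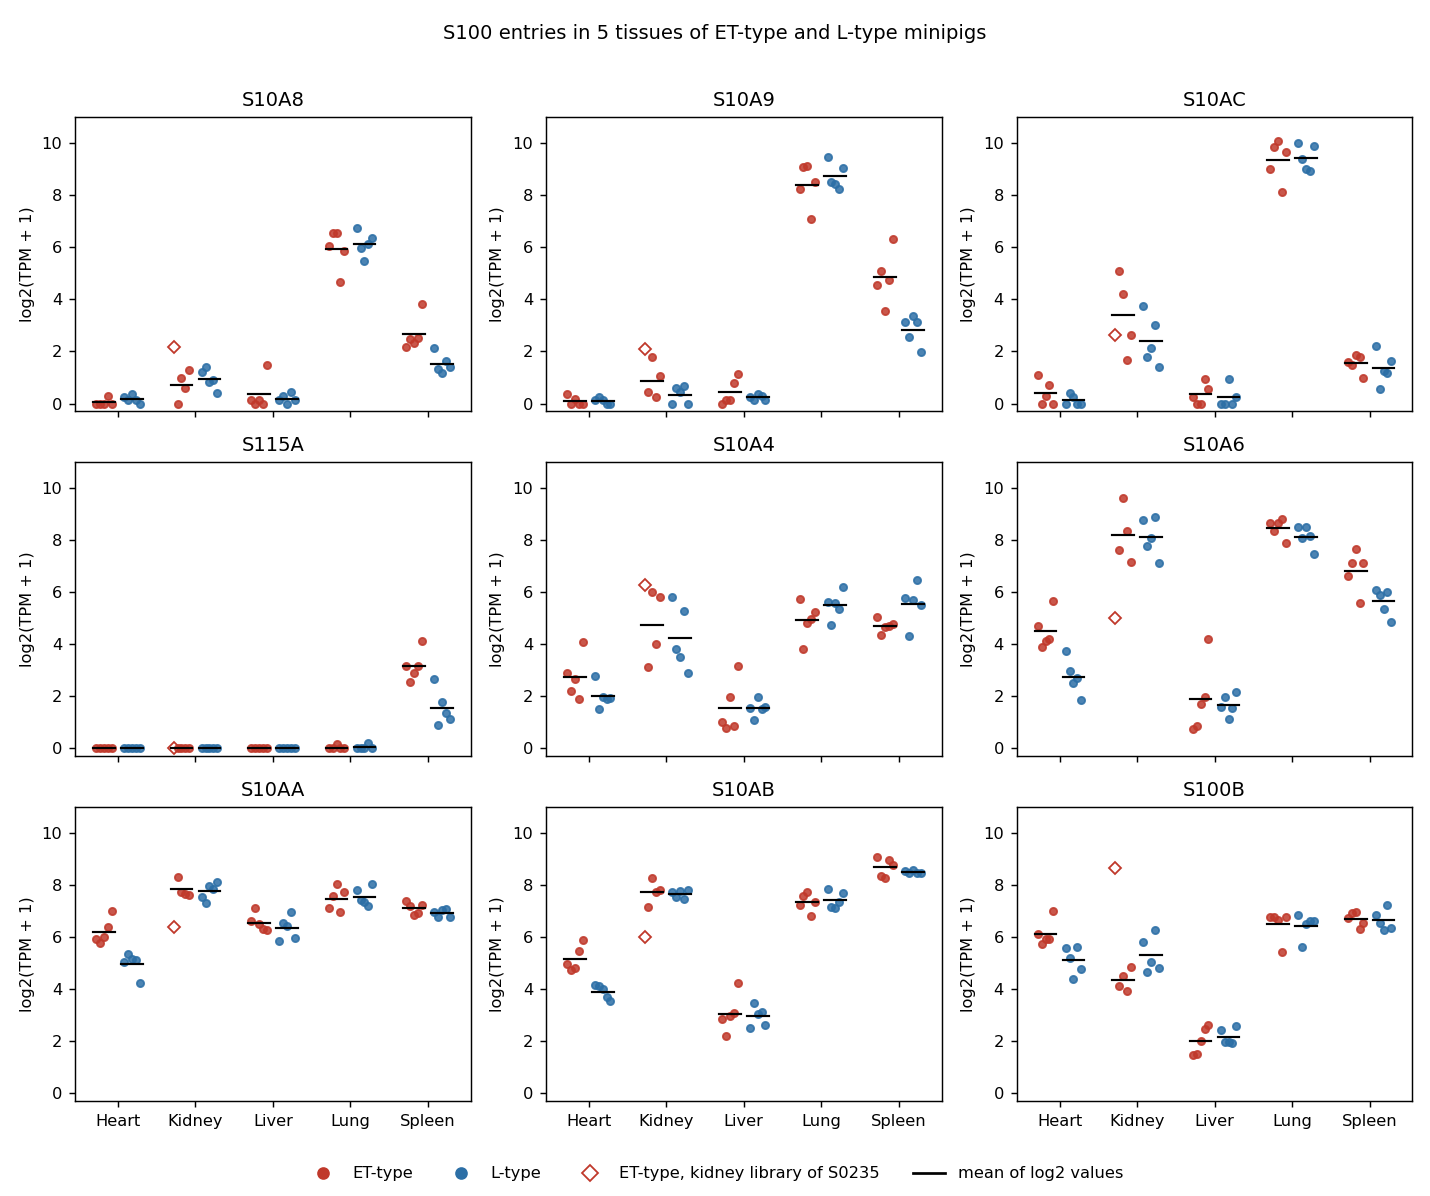
Level of each of the 9 measured S100 entries, as log2(TPM + 1), in heart, kidney, liver, lung and spleen; each point is 1 animal, ET left and L right in each tissue, bars are means of the log2 values, and the open diamond is the kidney library of S0235, which is left out of its mean. S10A8, S10A9 and S10AC stand highest in lung, S115A is above 1 TPM in spleen only, and S10A6, S10AA, S10AB and S100B are higher in each ET heart than in any L heart.

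Calprotectin was most abundant in lung. S10A8 was at 65.8, 93.7, 91.8, 24.3 and 56.8 TPM in ET lungs and at 106.9, 62.2, 43.8, 68.9 and 81.2 TPM in L lungs. S10A9 was at 297, 540, 559, 133 and 357 TPM in ET lungs and at 699, 363, 339, 300.0 and 525 TPM in L lungs. ET and L lungs overlapped for both subunits, and the lowest lung for both was S0309 of the ET type. Spleen came next with 3.98 ± 3.44 TPM of S10A8 and 20.2 ± 22.6 TPM of S10A9 (SD, n = 10), while lung averaged 69.5 ± 24.8 and 411 ± 166 TPM (SD, n = 10). On the log2(TPM + 1) scale lung exceeded spleen by 3.94 ± 0.21 for S10A8 and by 4.73 ± 0.24 for S10A9 (SE; limma adjusted p = 7.31e-21 and 1.20e-21).

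Heart, kidney and liver held little calprotectin. In heart, 5 of 10 libraries were listed at 0 TPM for S10A8 and 5 of 10 for S10A9, and the highest hearts had 0.298 TPM of S10A8 and 0.302 TPM of S10A9. In liver, 9 of 10 libraries were below 1 TPM for each subunit, the exception being the ET liver S0326 for both (1.77 and 1.17 TPM). The 9 kidneys averaged 0.882 ± 0.550 TPM of S10A8 and 0.617 ± 0.752 TPM of S10A9 (SD, n = 9). Kidney exceeded liver by 0.56 ± 0.22 for S10A8 on the log2(TPM + 1) scale (SE; limma adjusted p = 0.0225), but for S10A9 neither kidney minus liver nor liver minus heart passed (limma adjusted p = 0.345 and 0.446). S10A8 averaged under 1 TPM in kidney and in liver (0.882 and 0.274 TPM), below the filter used within single tissues, so its passed difference carries little.

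S10A9 was the more abundant subunit wherever both were well measured. The ratio of S10A9 TPM to S10A8 TPM was 4.52, 5.76, 6.09, 5.47 and 6.29 in ET lungs and 6.54, 5.83, 7.75, 4.35 and 6.47 in L lungs. In spleen it was 6.55, 7.25, 2.64, 5.44 and 5.96 in ET animals and 2.30, 3.16, 7.15, 3.70 and 1.74 in L animals. The ratio stayed between 4.35 and 7.75 in all 10 lungs and varied more in spleen, where its range was 1.74 to 7.25 and S10A8 was near the low end of the table. A ratio between entries also depends on how completely each transcript was assembled.

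S10AC, which encodes calgranulin C, a ligand of RAGE made by granulocytes, was the most abundant S100 entry in lung. It was at 506, 915, 1074, 275.6 and 806 TPM in ET lungs and at 1020, 666, 506, 480 and 945 TPM in L lungs. Its level followed S10A9 from animal to animal: S10AC TPM over S10A9 TPM was 1.70, 1.70, 1.92, 2.07 and 2.26 in ET lungs and 1.46, 1.84, 1.49, 1.601 and 1.80 in L lungs. Over the 10 lungs the Pearson correlation of log2(TPM + 1) was 0.956 between S10A9 and S10AC, 0.930 between S10A8 and S10A9 and 0.881 between S10A8 and S10AC, as a description of libraries that share a tissue and the animal S0309 at the low end.

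**Figure D2:**
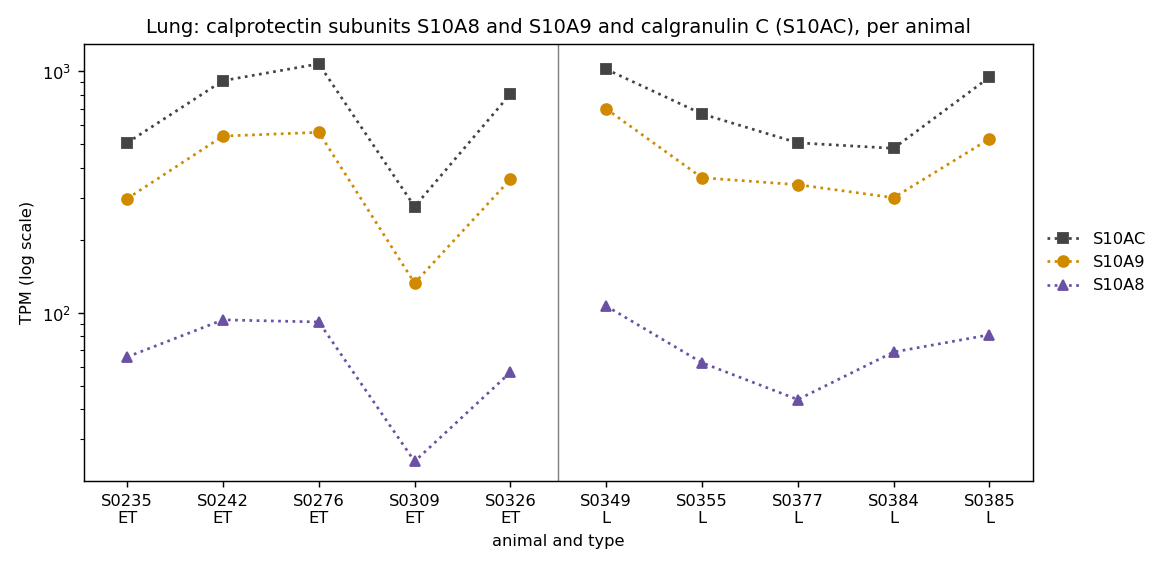
TPM on a log scale of S10AC, S10A9 and S10A8 in the lung of each animal, 5 ET left of 5 L. In all 10 lungs S10AC is above S10A9 and S10A9 above S10A8, and S0309 of the ET type is lowest for each of the 3 entries (275.6, 133 and 24.3 TPM).

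Outside lung S10AC parted from calprotectin. Kidney came second, with 33.4, 17.4, 2.22 and 5.28 TPM in the ET kidneys S0242, S0276, S0309 and S0326 and 12.4, 2.48, 3.34, 7.004 and 1.64 TPM in L kidneys. Lung exceeded kidney by 6.47 ± 0.31 on the log2(TPM + 1) scale, and kidney exceeded spleen by 1.46 ± 0.31 (SE; limma adjusted p = 7.31e-23 and 7.88e-05). Spleen, the second tissue for both calprotectin subunits, held only 1.88 ± 0.92 TPM of S10AC (SD, n = 10), and S10AC over S10A9 was at most 0.716 there. Within spleen the correlation of S10A9 with S10AC was -0.053 over 10 libraries, while that of S10A8 with S10A9 was 0.882. Liver and heart were at 0.275 ± 0.380 and 0.254 ± 0.375 TPM of S10AC (SD, n = 10 each) and did not differ beyond their spread (limma adjusted p = 0.970).

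Neutrophil markers differed among themselves in where they were highest. Of 30 listed markers 10 were matched, and the granule genes PERM, CATG, PRTN3 and CAP7 were among the 20 without a transcript in the annotation. In lung NGAL (lipocalin-2, also made by airway epithelium) was at 248 ± 98 TPM, PGRP1 at 23.7 ± 11.09 TPM and MMP9 at 16.3 ± 19.9 TPM, while CSF3R (the G-CSF receptor) was at 7.67 ± 7.25 TPM and ELNE (neutrophil elastase) at 2.38 ± 0.63 TPM (SD, n = 10 each). In spleen CSF3R was at 0.442 ± 0.231 TPM, MMP9 at 0.448 ± 0.404 TPM and ELNE at 0.999 ± 0.645 TPM, beside 86.1 ± 24.6 TPM of CXCR2 (SD, n = 10 each). The summed list was at 240.0, 486, 268, 414 and 152 TPM in ET lungs and at 458, 342, 441, 261 and 519 TPM in L lungs. Its part in the lung levels of calprotectin was not tested.

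Receptors of calprotectin were measured in every tissue. RAGE, the receptor of calprotectin and of S10AC, was at 318 ± 250 TPM in lung and at most 4.36 ± 0.93 TPM on average elsewhere, in kidney (SD, n = 10 and 9). TLR4 was at 56.2 ± 23.2 TPM in spleen and 19.4 ± 9.7 TPM in lung, and its co-receptor LY96 at 97.5 ± 42.8 and 60.5 ± 11.96 TPM (SD, n = 10 each). CD14, which hands ligands to TLR4, was highest in liver (274 ± 72 TPM), where calprotectin was near 0. CD36, a fatty acid transporter that also binds the S10A8 and S10A9 complex, was highest in heart (732 ± 225 TPM, SD, n = 10). CD33, a sialic acid receptor of myeloid cells, was at 188 ± 37 TPM in spleen and 20.3 ± 10.1 TPM in lung, and BASI (basigin) was at 188 to 401 TPM on average in all 5 tissues.

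S115A was listed at 0 TPM in all hearts, all livers and all 10 kidneys, that of S0235 included. In lung 8 of 10 libraries were at 0 and the highest was at 0.157 TPM. Spleen averaged 5.50 ± 4.70 TPM (SD, n = 10). The mean over the 49 libraries was 1.13 TPM, so that S115A passed the filter through spleen alone and no test between its tissues is given.

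S10A4, a protein of motile and mesenchymal cells and of leukocytes, was at 39.2 ± 16.6 TPM in lung, 38.2 ± 21.1 TPM in spleen and 29.2 ± 23.3 TPM in kidney (SD, n = 10, 10 and 9). Neither lung minus spleen nor spleen minus kidney passed (limma adjusted p = 0.868 and 0.127), and with median-ratio scaling lung minus spleen was -0.565 on the log2 scale. Heart had 5.02 ± 4.09 TPM and liver 2.33 ± 2.13 TPM of S10A4 (SD, n = 10 each). Kidneys spread widely within both types, with 7.68, 62.8, 14.98 and 55.8 TPM in the 4 ET kidneys and 54.5, 13.01, 10.2, 37.5 and 6.43 TPM in L kidneys.

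S10A6, calcyclin, which is expressed by epithelial cells and fibroblasts, led in lung (324 ± 85 TPM, n = 10) and kidney (330 ± 205 TPM, n = 9; SD). Lung and kidney did not differ beyond their spread (limma adjusted p = 0.729), and median-ratio scaling turned the sign of lung minus kidney to -0.41 on the log2 scale. Spleen followed with 87.3 ± 54.4 TPM, heart with 15.5 ± 13.9 TPM and liver with 3.57 ± 4.96 TPM (SD, n = 10 each), and each of these steps passed the test (limma adjusted p at most 4.23e-06). Its range was the widest of the members found in every library, with 0.694 TPM in the ET liver S0235 and 775 TPM in the ET kidney S0276. CYBP, the calcyclin-binding protein, moved far less between tissues, with means of 45.8 to 84.6 TPM.

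S10AA, the light chain of the annexin A2 complex, was spread more evenly. It averaged 224 ± 51 TPM in kidney, 187 ± 49 TPM in lung, 129 ± 19 TPM in spleen, 88.9 ± 24.6 TPM in liver and 53.9 ± 31.6 TPM in heart (SD, n = 9 for kidney, 10 otherwise). Kidney and lung did not differ beyond their spread on TPM (limma adjusted p = 0.158), while under median-ratio scaling kidney exceeded lung by 0.82 on the log2 scale (limma adjusted p = 6.12e-05). The lower steps passed. ANXA2, its partner, did not follow that order: it was at 743 ± 114 TPM in lung, 110 ± 53 TPM in liver, 95.8 ± 41.1 TPM in heart, 73.7 ± 17.3 TPM in spleen and 68.8 ± 26.4 TPM in kidney. S10AA TPM over ANXA2 TPM was therefore 3.55 ± 0.99 in kidney, 1.81 ± 0.36 in spleen, 0.963 ± 0.440 in liver, 0.540 ± 0.111 in heart and 0.253 ± 0.060 in lung (SD, n = 9 for kidney, 10 otherwise). The highest lung ratio, 0.378, was below the lowest ratio in kidney (1.82), spleen (1.19) and liver (0.437), but above the lowest in heart (0.263).

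S10AB, calgizzarin, which binds annexin A1 and takes part in membrane repair, was the most abundant S100 entry in spleen. It averaged 388 ± 73 TPM in spleen, 210 ± 46 TPM in kidney, 168 ± 38 TPM in lung, 25.4 ± 15.04 TPM in heart and 7.64 ± 3.97 TPM in liver (SD, n = 9 for kidney, 10 otherwise). Spleen exceeded kidney by 0.89 ± 0.18 on the log2(TPM + 1) scale (SE; limma adjusted p = 4.81e-05), while kidney and lung did not differ beyond their spread (limma adjusted p = 0.118). Its partner ANXA1 was at 522 ± 91 TPM in lung, 257 ± 58 TPM in spleen and 5.99 ± 4.14 TPM in liver (SD, n = 10 each).

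S100B was found in every library of tissues that hold few glia. It averaged 103 ± 23 TPM in spleen, 90.7 ± 24.9 TPM in lung, 53.9 ± 29.1 TPM in heart, 32.6 ± 19.8 TPM in kidney and 3.41 ± 1.23 TPM in liver (SD, n = 9 for kidney, 10 otherwise). Spleen and lung did not differ beyond their spread on TPM (limma adjusted p = 0.374), while under median-ratio scaling spleen exceeded lung by 0.87 on the log2 scale (limma adjusted p = 9.65e-04). The 3 lower steps passed on TPM (limma adjusted p at most 0.00153). The summed TPM of 7 matched glial markers was 28.6 to 74.0 in spleens, below the S100B level alone in each. In livers it was 25.4 to 71.8, above the S100B level in each, and in lungs it was 59.1 to 154, with S100B at 42.3 to 112 TPM.

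S10A1 had no transcript under the rule, but 1 transcript of 1926 bases bears on it. Its predicted peptide matched residues 1 to 94 of bovine S100A1 at 100% identity, while its best translated nucleotide match, on the opposite strand, was bovine S100A13 at 93.9%, so its TPM are counted under S10AD. In RefSeq the genes S100A1 (96007026 to 96012305) and S100A13 (96007280 to 96025120) of chromosome 4 share 5026 of the 5280 bases of S100A1. This transcript was at 932, 614, 710, 344 and 317 TPM in ET hearts and at 743, 660, 791, 883 and 680 TPM in L hearts. It averaged 667 ± 203 TPM in heart, 140 ± 39 TPM in kidney, 107 ± 45 TPM in liver, 70.7 ± 18.1 TPM in lung and 9.97 ± 2.96 TPM in spleen (SD, n = 9 for kidney, 10 otherwise). Whether strand was used in the quantification is not given in the sources used here, so reads of both genes cannot be told apart on it and the heart level belongs to the pair.

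Other S100 entries had their own leads. S10A2, an epithelial member, was at 67.5 to 191 TPM in lungs, at 3.35 to 151 TPM in kidneys and at most 0.175 TPM in spleens. S10AD was highest in heart (687 ± 197 TPM), of which the transcript above made up 667 TPM on average, and S10AE was highest in lung (75.6 ± 16.8 TPM; SD, n = 10 each). S10AG was at 194 ± 54 TPM in lung and 186 ± 42 TPM in spleen, which did not differ beyond their spread (limma adjusted p = 0.867). S10A5 had a mean under 1 TPM over the 49 libraries, with at most 3.86 TPM in a kidney. S10A3, S10A7, S100P, S100Z and S100G and the 7 listed fused-type epidermal relatives (filaggrin, hornerin, trichohyalin and others) had no matched transcript and are not analysed here.

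Between types, S100 entries differed in spleen. S10A8, S10A9, S115A and S10A6 were higher in ET spleens than in L spleens, 4 of the 9 entries tested, and none was lower. The background is large in this tissue: 22.2% of 24007 genes were called, 167 higher and 5172 lower in ET spleens, so that 0.696% of all genes were called higher. The median difference of all genes was -0.47 on the log2 scale, against 0.21 for the 9 S100 entries. That split depends on scaling: median-ratio scaling gave 476 genes higher and 261 lower (64.6% higher, against 3.13% on TPM), and TPM recomputed without haemoglobin transcripts gave 204 higher and 1746 lower.

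S10A8 was at 3.46, 4.59, 4.03, 4.75 and 13.1 TPM in ET spleens, against 3.33, 1.54, 1.28, 2.07 and 1.68 TPM in L spleens. S10A9 was at 22.6, 33.3, 10.6, 25.8 and 77.9 TPM in ET spleens, against 7.66, 4.86, 9.16, 7.68 and 2.93 TPM in L spleens. Every ET spleen was above every L spleen for both subunits, with S0326 far above the other ET spleens. Groups that do not overlap made up 15.8% of all genes in spleen, so this separation is common there. For S10A8 the margin was small, with the lowest ET spleen at 3.46 TPM and the highest L spleen at 3.33 TPM. S10A8 averaged 5.98 ± 3.99 TPM in ET and 1.98 ± 0.81 TPM in L spleens (SD, n = 5 each), a difference of 1.12 ± 0.31 on the log2(TPM + 1) scale (SE; limma adjusted p = 0.0331). S10A9 averaged 34.04 ± 25.8 TPM in ET and 6.46 ± 2.51 TPM in L spleens (SD, n = 5 each), a difference of 2.03 ± 0.43 (SE; limma adjusted p = 0.0240). The pseudocount understates the change of S10A8, whose values are low.

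S115A was at 7.90, 4.89, 6.37, 7.94 and 16.5 TPM in ET spleens, against 5.29, 0.851, 2.46, 1.58 and 1.18 TPM in L spleens. The groups overlapped through 1 L spleen, S0349 at 5.29 TPM. The difference was 1.61 ± 0.36 on the log2(TPM + 1) scale (SE, n = 5 each; limma adjusted p = 0.0255). S10A6 was at 97.9, 137, 199, 47.0 and 136 TPM in ET spleens, against 66.8, 58.5, 39.6, 63.4 and 28.2 TPM in L spleens. Here the groups overlapped through the ET spleen S0309. The difference was 1.17 ± 0.35 (SE, n = 5 each; limma adjusted p = 0.0383).

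**Figure D3:**
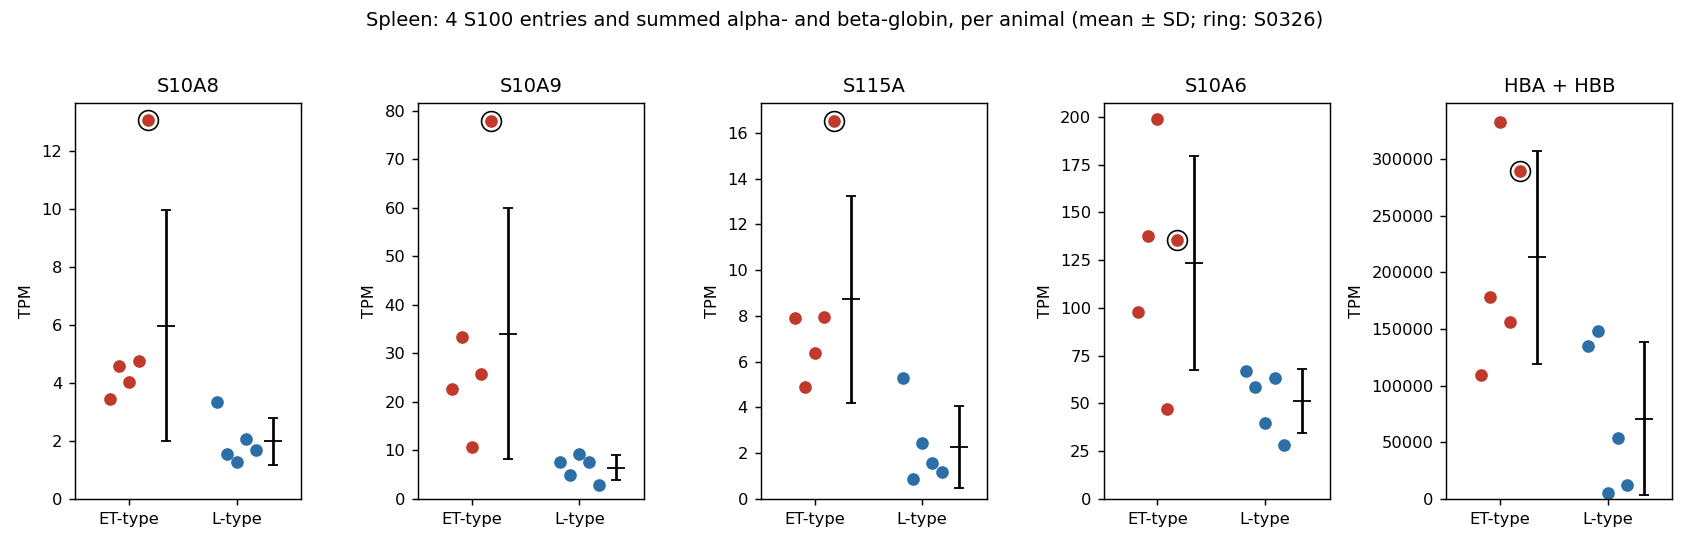
TPM of S10A8, S10A9, S115A, S10A6 and of summed alpha- and beta-globin in spleen; each point is 1 animal, ET left and L right, with mean ± SD (n = 5 each) beside the points and a ring around S0326. All ET spleens lie above all L spleens for S10A8 and S10A9, and ET and L spleens overlap for S115A, S10A6 and globin.

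These 4 calls rest on few animals. Without the ET animal S0326, or without the L animals S0377 or S0385, none of the 9 entries was called; without S0326 the difference was 1.67 for S10A9, 1.37 for S115A, 1.103 for S10A6 and 0.83 for S10A8 (limma adjusted p = 0.0533, 0.0581, 0.0822 and 0.0610). Without the ET animals S0242 or S0276, 2 and 1 entries were called, and without the L animal S0384 it was 1. The share of all genes called also fell, to 0.462% without S0326, 0.174% without S0377 and 0.214% without S0385. It was 10.7% without S0242, 1.05% without S0276 and 3.06% without S0384. A fit over 49 libraries took the animal as replicate block. It called S10A8, S10A9 and S115A (limma adjusted p = 0.00833, 4.20e-04 and 1.27e-06) and not S10A6 (limma adjusted p = 0.0637). In that fit 20.7% of all 29725 genes were called between types in spleen, 134 higher (0.451%) and 6021 lower in ET.

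Among the other members in spleen, S10A4 ran the other way, at 32.1, 19.7, 24.4, 25.2 and 26.3 TPM in ET animals, against 53.1, 19.1, 50.9, 86.6 and 44.2 TPM in L animals. It missed the threshold (-0.83 ± 0.31, SE; limma adjusted p = 0.0661) and passed it without the L spleen S0355, the lowest of its group (-1.14, limma adjusted p = 0.0213). The share of all genes called without S0355 is not given here, so that call is not set against a background. S10AA, at 139 ± 22 TPM in ET spleens and 119 ± 12 TPM in L spleens, and S10AB, at 417 ± 98 and 359 ± 17 TPM, were not called on TPM (limma adjusted p = 0.277 and 0.402) and were called higher under median-ratio scaling (0.80 and 0.77 on the log2 scale, limma adjusted p = 0.0407 and 0.0404). S100B, at 104 ± 19 and 102 ± 30 TPM, and S10AC, at 1.98 ± 0.66 and 1.77 ± 1.204 TPM, were not called (SD, n = 5 each; limma adjusted p = 0.840 and 0.656).

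The lists of other cell types in spleen moved as follows, where 22.2% of all 24007 genes were called, 167 higher and 5172 lower. A single lower call in a list is therefore near or below that background. The split of calls depends on scaling, as described above. Of 5 red cell markers tested 2 were called higher, HBA at 74120 ± 33800 TPM in ET spleens against 20620 ± 18610 TPM in L spleens, and AHSP (the alpha-globin chaperone) at 1280 ± 609 TPM in ET against 357 ± 362 TPM in L spleens; the list summed to 110600 to 337500 TPM in ET and 5495 to 150400 TPM in L. Of 6 neutrophil markers tested none had a higher mean in ET and 2 were called lower, CY24B (the oxidase subunit gp91-phox; -1.99 ± 0.48) and LYAM1 (L-selectin; -1.58 ± 0.51). Of 15 monocyte and macrophage markers 1 was called, C163A, lower (-1.39 ± 0.39). Of 10 T cell markers 8 were called lower, with CD3G at -1.62 ± 0.38, CD2 at -1.48 ± 0.36 and CD3D at -1.76 ± 0.43, and of 7 B cell markers 3, with CD79B at -1.75 ± 0.56, BLK at -1.47 ± 0.48 and CD79A at -1.07 ± 0.35 (log2, SE, n = 5 each). Of 10 fibroblast and matrix markers 7 had a higher mean in ET spleens and 1 was called, PGFRA, lower (-1.08 ± 0.35), and the single calls among epithelial and glial markers were lower as well (EPCAM, -1.02 ± 0.27, and MBP, -1.11 ± 0.27). The neutrophil list summed to 165 to 249 TPM in ET spleens and 208 to 396 TPM in L spleens. The part of these cell types in the S100 differences was not tested; with haemoglobin transcripts taken out before scaling, the differences of S10A8, S10A9 and S115A were 1.35, 2.28 and 1.86 (limma adjusted p = 0.0447, 0.0332 and 0.0343), and S10A6 was not called (1.42, limma adjusted p = 0.0555).

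No listed receptor or partner was called higher in ET spleens, where 0.696% of all genes were, so that this count says little about them. Lower calls were common in this tissue, at 5172 of 24007 genes. Of 8 listed receptors and adaptors none had a higher mean in ET spleens and 1 was called, TLR4, at 39.0 ± 16.3 TPM against 73.5 ± 14.3 TPM in L spleens (-0.99 ± 0.29, SE; limma adjusted p = 0.0355). Of 9 binding partners 1 was called, AHNK, a giant scaffold bound by the S100A10 and annexin A2 complex, at 14.8 ± 6.3 TPM in ET against 39.7 ± 7.7 TPM in L spleens (-1.46 ± 0.31, limma adjusted p = 0.0240). Of 9 cytokine and inducer genes 1 was called, STAT3, at 25.5 ± 8.8 TPM in ET against 52.8 ± 18.03 TPM in L spleens (-1.02 ± 0.29, limma adjusted p = 0.0334; SD, n = 5 each). The medians of these lists were -0.31, -0.35 and -0.25, against -0.47 for all genes.

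In heart, 4 entries were higher in every ET heart than in any L heart, although none of the 5 tested passed in heart alone, where 0.0238% of 21014 genes were called. S10A6 was at 25.2, 13.8, 16.6, 17.3 and 49.6 TPM in ET hearts, against 12.4, 6.93, 4.71, 5.45 and 2.61 TPM in L hearts. S10AA was at 59.1, 52.8, 63.2, 81.8 and 126 TPM in ET hearts, against 31.4, 39.2, 34.1, 33.2 and 17.8 TPM in L hearts. S10AB was at 30.0, 25.8, 27.3, 42.6 and 57.6 TPM in ET hearts, against 16.8, 16.3, 14.8, 11.8 and 10.6 TPM in L hearts. S100B was at 67.4, 51.6, 59.8, 59.3 and 125 TPM in ET hearts, against 47.2, 35.3, 19.9, 47.3 and 26.5 TPM in L hearts. In all 4 the highest heart was that of S0326. Groups that do not overlap made up 4.68% of all genes in heart.

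**Figure D4:**
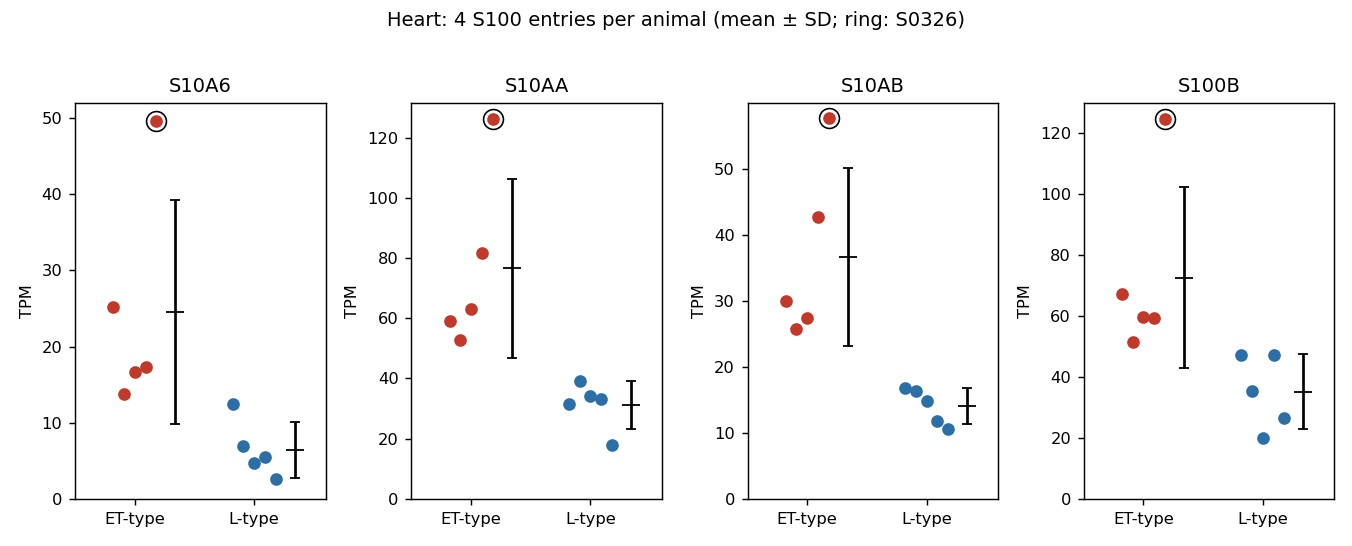
TPM of S10A6, S10AA, S10AB and S100B in heart; each point is 1 animal, ET left and L right, with mean ± SD (n = 5 each) beside the points and a ring around S0326. For each entry the lowest ET heart lies above the highest L heart, and S0326 is the highest ET heart.

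The heart differences on the log2(TPM + 1) scale were 1.76 ± 0.39 for S10A6, 1.24 ± 0.27 for S10AA, 1.28 ± 0.24 for S10AB and 1.02 ± 0.29 for S100B (SE, n = 5 each; limma adjusted p = 0.0863 for the first 3 and 0.0998 for S100B). In heart 4670 genes had an unadjusted p under 0.05 by limma, these 4 among them. All 4 entries were called in the fit over 49 libraries with the animal as replicate block (limma adjusted p = 0.0275, 0.00202, 0.00226 and 0.0418), where 2.77% of all genes were called between types in heart, and also without the ET heart S0242 (limma adjusted p between 0.0248 and 0.0439). The share of all genes called without S0242 is not given here, so those calls are not set against a background and add no support. S10A4, at 6.79 ± 5.25 TPM in ET hearts and 3.26 ± 1.52 TPM in L hearts, overlapped and was not called (0.72 ± 0.38, limma adjusted p = 0.282). S10A8, S10A9, S10AC and S115A were under the filter of a mean of 1 TPM in heart.

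Some lists of other cell types had higher sums in ET hearts and others did not. Single genes without overlap made up 4.68% of all genes in heart. The 10 fibroblast and matrix markers had a higher mean in ET hearts in 10 of 10 and summed to 2638, 1491, 1402, 1602 and 3671 TPM in ET hearts, against 1121, 1061, 601, 493.1 and 400.3 TPM in L hearts, with no overlap; none was called. VIME (vimentin) was at 499 ± 183 TPM in ET hearts and 157 ± 35 TPM in L hearts (limma adjusted p = 0.0731), and FINC (fibronectin) at 20.1 ± 7.4 and 6.99 ± 3.21 TPM (SD, n = 5 each; limma adjusted p = 0.0863). Red cell markers summed to 129 to 1161 TPM in ET hearts and 13.4 to 135 TPM in L hearts. HBA was at 124 ± 99 TPM in ET hearts and 20.3 ± 15.3 TPM in L hearts with overlap, and HBB at 411 ± 318 and 48.99 ± 37.89 TPM without overlap (SD, n = 5 each). Proliferation markers summed to 20.4 to 33.1 TPM in ET hearts and 13.3 to 19.3 TPM in L hearts, without overlap. Monocyte and macrophage markers summed to 258 to 512 TPM in ET hearts and 106 to 349.4 TPM in L hearts, and T cell markers to 4.404 to 12.4 and 3.43 to 5.43 TPM. No marker of these 4 lists was called. Heart muscle markers summed to 24060 to 68140 TPM in ET hearts and 67020 to 82540 TPM in L hearts, and glial markers to 21.5 to 79.9 and 20.3 to 30.1 TPM. Adipocyte markers summed to 124.6 to 295.5 TPM in ET hearts and 142.7 to 296.9 TPM in L hearts, and B cell markers to 6.62 to 13.9 and 7.35 to 9.30 TPM. ANXA2, the S10AA partner, was at 128 ± 35 TPM in ET hearts and 64.0 ± 5.9 TPM in L hearts without overlap, and ANXA1, the S10AB partner, at 150 ± 75 and 42.9 ± 19.3 TPM (SD, n = 5 each; limma adjusted p = 0.0863 for both). The part of these cell types in the heart differences was not tested.

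In lung no S100 entry was called of 8 tested, where 0.213% of 29139 genes were called; 4729 genes had an unadjusted p under 0.05 by limma, no S100 entry among them. S10A8 averaged 66.5 ± 28.5 TPM in ET lungs and 72.6 ± 23.5 TPM in L lungs, S10A9 377.3 ± 177.5 and 445 ± 166 TPM, and S10AC 716 ± 322 and 724 ± 248 TPM (SD, n = 5 each). The differences were -0.21 ± 0.35, -0.33 ± 0.38 and -0.10 ± 0.36 on the log2 scale (SE; limma adjusted p = 0.815, 0.708 and 0.924), so calprotectin was not detectably different between the types in lung, where it was most abundant. Without the ET lung S0309 the differences of S10A8 and S10AC were 0.11 and 0.21. Of 8 listed receptors and adaptors tested in lung, none was called and 2 did not overlap, beside 4.204% of all genes. CD33, a myeloid receptor, was at 12.1 ± 3.1 TPM in ET lungs and 28.5 ± 7.2 TPM in L lungs without overlap (limma adjusted p = 0.0645). RAGE was at 91.52 to 211.5 TPM in ET lungs and 216.6 to 911.0 TPM in L lungs, also without overlap. CD14 overlapped, at 6.438 ± 2.793 TPM in ET lungs and 17.26 ± 6.654 TPM in L lungs (SD, n = 5 each).

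In kidney no entry was called of 6 tested, where 0.00376% of 26569 genes (1 gene) were called. The largest differences were those of S10AC (14.6 ± 14.1 TPM in ET and 5.39 ± 4.45 TPM in L kidneys; 0.996 ± 0.683, limma adjusted p = 0.641) and S100B. S100B was at 16.4, 21.4, 14.1 and 28.0 TPM in the 4 ET kidneys, against 54.7, 24.4, 32.1, 75.1 and 27.1 TPM in L kidneys, with an overlap of the highest ET kidney (-0.97 ± 0.36, SE; limma adjusted p = 0.573). S10A6, S10AA and S10AB differed by 0.06 to 0.08. In liver no entry was called of 5 tested, where 0.00933% of 21445 genes were called, and the differences ran between -0.16 (S100B) and 0.23 (S10A6). The 5 ET livers included the highest library for S10A4, S10A6 and S10AB in S0326 (7.94, 17.4 and 17.7 TPM), and without it the differences of these 3 were -0.39, -0.35 and -0.19. By limma, 2312 genes in kidney and 1412 in liver had an unadjusted p under 0.05; S100B in kidney was the only S100 entry among them.

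**Figure D5:**
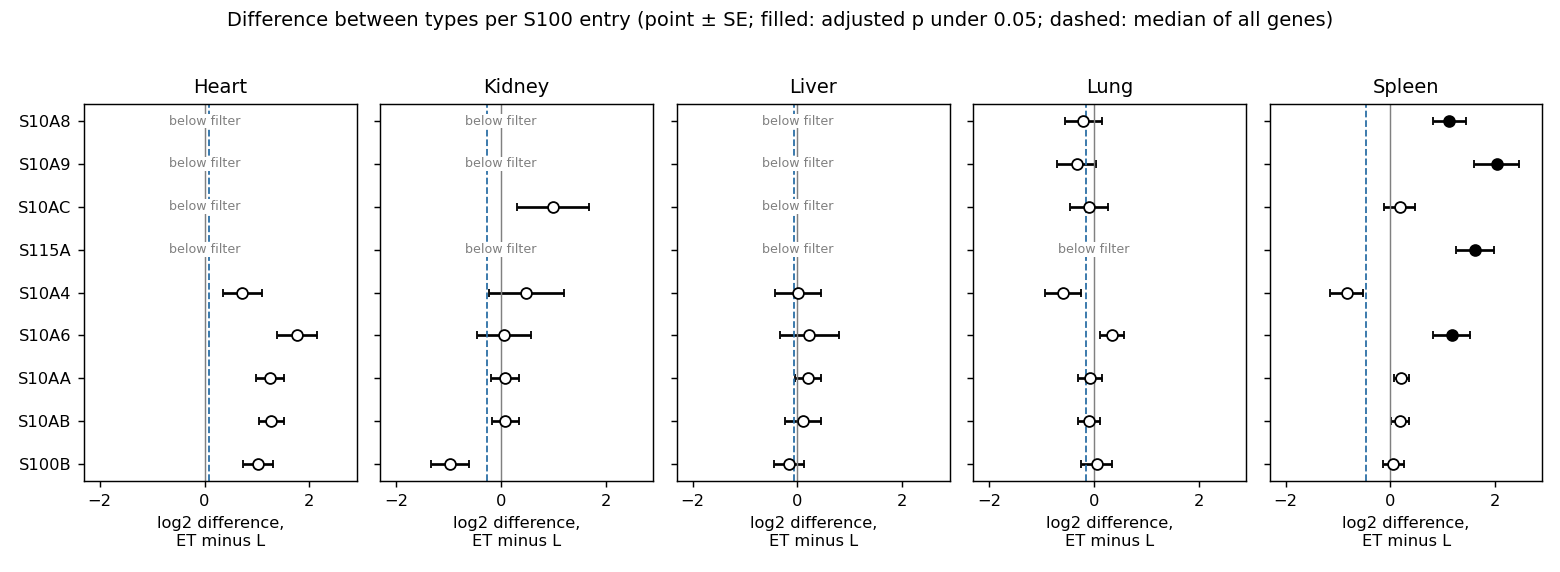
Difference between types, ET minus L on the log2(TPM + 1) scale, per S100 entry in each tissue (point ± SE, filled where the adjusted p was under 0.05); the dashed line is the median difference of all genes in that tissue, and entries with a mean under 1 TPM are marked as below the filter. S10A8, S10A9, S115A and S10A6 are the filled points, all in spleen, and the heart points of S10A6, S10AA, S10AB and S100B lie between 1.02 and 1.76.

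Averaged over heart, liver, lung and spleen, no S100 entry was called, where 0.0104% of 28875 genes (3 genes) were called and 5331 had an unadjusted p under 0.05 by limma, among them S10A6, S10AA, S115A, S10A9 and S10AB. S10A6 (0.88 ± 0.23) and S10AA (0.40 ± 0.10) did not overlap between 5 ET and 5 L animals (SE; limma adjusted p = 0.147 and 0.145), beside 4.35% of all genes without overlap. S115A (0.40 ± 0.11) and S10A9 (0.47 ± 0.16) overlapped (limma adjusted p = 0.152 and 0.192), and S10AB (0.37 ± 0.14), S100B (0.24 ± 0.16), S10A8 (0.24 ± 0.17), S10AC (0.12 ± 0.13) and S10A4 (-0.17 ± 0.27) did not pass either. The average of S115A restates its spleen values, through which alone it passed the filter, and supports nothing about the other tissues.

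Whether the type difference varied among the 5 tissues was tested as an interaction over 49 libraries. It was called for 5 of the 9 entries, where 6.1% of 29725 genes were called. One of them, S115A, entered the test through its spleen values alone and was listed at 0 or nearly so elsewhere, so its call supports nothing. The other 4 were S10A9, S100B, S10AA and S10AB (limma adjusted p = 0.0156, 0.0362, 0.0415 and 0.0465). For S10A9 the difference was 2.03 in spleen and -0.33 in lung; for S10AA it was 1.24 in heart and between -0.08 and 0.21 elsewhere; for S10AB 1.28 in heart and between -0.09 and 0.18 elsewhere; and for S100B 1.02 in heart and -0.97 in kidney. S10A8, S10A6, S10A4 and S10AC were not called (limma adjusted p = 0.101, 0.217, 0.339 and 0.659). Median-ratio scaling left S115A and S10A9, and without the ET animal S0326 none was called, with S115A then under the filter. The count was 1 without S0385, 2 without S0235, S0349, S0377 or S0384, and 3 without S0276 or S0309.

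The kidney library of S0235 had an S100 profile of its own. It had 3.49 TPM of S10A8 and 3.28 TPM of S10A9, above the other 9 kidneys (at most 1.66 and 2.41 TPM), and 395 TPM of S100B, against at most 75.1 TPM. S10A4 was also the highest of all kidneys at 77.1 TPM. S10A6, S10AA and S10AB were the lowest of all kidneys, at 30.8, 81.2 and 62.7 TPM, where the other 9 started at 137, 155 and 140.2 TPM. S10AC was within the range of the others at 5.12 TPM. Its T cell markers summed to 3249 TPM and its neutrophil markers to 376 TPM; the part of lymphoid tissue in this profile was not tested. With this library kept among the ET kidneys, no entry was called either, and the difference of S10A6 was -0.58.

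Likeness was measured as the Pearson correlation of log2(TPM + 1) over 49 libraries, which share 5 tissues and 10 animals, with each of 13644 entries. S10A8 and S10A9 were at 0.980 with each other, S10A8 and S10AC at 0.919. Outside the family the entries most like S10A8 were ATS8 (a secreted metalloprotease, 0.969), SPAS1 (0.951) and AL3B1 (an aldehyde dehydrogenase, 0.948), and those most like S10A9 were ATS8 (0.955), LR10B (0.947) and CP054 (0.941). S10AC went with S4A5 (a bicarbonate transporter, 0.974), RAB6B (0.972) and CFA90 (0.971). Their levels were highest in lung for those checked: ATS8 was at 40.2 ± 19.7 TPM in lung and at most 1.76 TPM on average elsewhere, and S4A5 at 173 ± 68 TPM in lung and at most 2.40 TPM.

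The remaining members had other company. S115A was most like the erythroid entries AHSP (0.919), HBM (a haemoglobin chain, 0.915) and HEM0 (the erythroid enzyme of haem synthesis, 0.912), which were at 819 ± 678, 673 ± 484 and 1038 ± 737 TPM in spleen and at most 2.01 TPM on average elsewhere. Since S115A was above 1 TPM in spleen only, entries confined to spleen rank high with it by that alone, and these values support nothing. With the tissue and type means taken out, no erythroid entry was among its 3 most alike entries. S10A4 went with CNN2 (calponin-2, 0.926), ACM4 (0.914) and JAML (a leukocyte adhesion protein, 0.909). S10A6 went with CACB3 (0.943), SEM3B (0.943) and CTBP2 (0.942), and S10AA with CX6A1 (0.889), PDXD1 (0.889) and CABL1 (0.882). S10AB went with RAB34 (0.960), CY24A (the p22-phox subunit of the oxidase, 0.959) and TYB4 (thymosin beta-4, 0.947). S100B went with CAVN1 (cavin-1, a coat protein of caveolae, 0.966), AT2B4 (a calcium pump, 0.951) and MOES (moesin, 0.951).

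With the tissue and type means taken out, the correlations show which entries varied together among animals of a group. S10A8 and S10A9 were at 0.722, S10A8 and S10AC at 0.189 and S10A9 and S10AC at 0.277 over all tissues. S100B went with CAVN3 (0.767), CAVN1 (0.726) and EHD2 (0.725), which are all caveolar proteins. S10A4 went with the leukocyte actin regulators COR1A (0.722) and LSP1 (0.709) and with CNN2 (0.710). S10A6 went with HTRA3 (0.730), GAPR1 (0.725) and COGA1 (0.712), and S10AB with ZNF34 (0.733), TLN1 (talin-1, 0.730) and RAB34 (0.720). S10A8 went with NU5M (0.716), COX1 (0.708) and PRDM6 (0.690), S10A9 with CYTC (0.702), CO5A1 (0.664) and ITIH5 (0.643), S10AA with PTMS (0.692), SH3L3 (0.600) and CATH (0.597), S10AC with AP1S3 (0.676), SIM24 (0.629) and LY9 (0.576), and S115A with APOR (0.496), NECT4 (0.450) and ANFC (0.428). The values of S115A rest almost wholly on the spleens.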

How the data were processed

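RNA-seq libraries were made from total RNA with a stranded mRNA kit, per the labels' protocols. The authors deposited TPM per assembled transcript and an annotation with the best Swiss-Prot matches; Trimmomatic 0.36, Salmon 1.10.0 and the build Sscrofa11.1 are named in the submitters' processing notes. TPM summed to 1000000 in each of 50 libraries. TPM were summed by Swiss-Prot entry, transcripts without an entry being kept singly (35133 genes).

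Genes whose TPM averaged 1 or more over the fitted libraries were tested on log2(TPM + 1) with limma 3.58.1 (R 4.3.3), trended empirical Bayes, Benjamini-Hochberg adjustment over all genes and an adjusted p threshold of 0.05. The 5 tissues were fitted singly for types, animal means over 4 tissues once, and 49 libraries together for tissues and the interaction. The fit was tested on simulated data. Samples of 1 group are different animals by their labels; how RNA was extracted from each is not given in the sources used here. The same animals gave all tissues: deviations of libraries of 1 animal correlated at 0.257 on average (96 pairs, 92 of them above 0.1), against -0.064 for different animals (384 pairs). No 2 libraries were identical.

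The members and lists were chosen with earlier results of these data known. All members are named, with other S100 entries averaging 1 TPM or more, the 3 entries most like each member, and, for a list given in the text, up to 3 called genes of lowest p, or, with none called, 2 of lowest p; the other genes named show a list's level or range and were chosen after their values were seen. Some list genes are not reported here. Gene positions come from RefSeq. Alternatives were another pseudocount (0.1), no filter or one at 5 TPM, median-ratio scaling, haemoglobin left out, the leading transcript, each animal left out, the animal as replicate block and the kidney library of S0235 kept.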

Additional observations from a re-analysis of the deposited data

Results flagged for a closer look

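In groups of 4 or 5 animals, 10 of 72 groups held an animal far from the others by Dixon's test. Its cut-offs give about 1 in 20 groups by chance for normal values in independent groups. These groups hold TPM of the same 10 animals, so the count cannot be weighed against that rate. S0326 of the ET type stood high for S10A8 in liver (1.769 TPM) and spleen (13.06 TPM), S115A in spleen (16.51 TPM), S10A4 and S100B in heart (15.81 and 124.8 TPM), and S10A6 and S10AB in liver (17.42 and 17.71 TPM). The others were S10A4 in the L heart S0349 (5.863 TPM), S10AA in the ET kidney S0242 (317.7 TPM) and S100B in the ET lung S0309 (42.32 TPM, low).

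The difference between types varied with tissue by the limma interaction test for S10A9 (adjusted p = 0.01556), S115A (0.0002317), S10AA (0.04145), S10AB (0.04654) and S100B (0.03618). S115A entered this test through its spleen values alone, so its call supports nothing.

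The kidney library of S0235, outside the comparisons, exceeded all other kidneys for S10A8 (3.492 TPM), S10A9 (3.284 TPM), S10A4 (77.08 TPM) and S100B (395.3 TPM).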

How the results depend on the processing

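Read depth is unknown for TPM, and entries near or under 1 TPM (calprotectin in kidney, liver and heart) and those of a few TPM (S10A8 and S115A in L spleens) are the least precise. Each result was paired with each alternative setting that applied to it. Counts of called S100 entries stayed within 1.5 times in 117 such pairs and moved in 21. The main counts in heart, kidney, liver, lung and over 4 tissues were 0, and a 0 that stayed 0 was taken as unchanged. Single values kept direction and side of the threshold in 908 pairs, fell short of the threshold in 63, newly passed it in 15 and changed sign in 42. The animal as replicate block, for animals that gave every tissue, raised the count in heart to 4, lost S10A6 in spleen (adjusted p = 0.0637) and brought S10A8 under the threshold for the interaction (0.0494); it changed no other call. Leaving out each animal in turn, the count of called entries ran between 0 and 4 in heart, 0 and 5 in spleen and 0 and 5 for the interaction. The interaction count was 2 with a pseudocount of 0.1, 2 under median-ratio scaling, 3 with haemoglobin left out, 2 with the leading transcript alone and 2 with the kidney library of S0235 kept. The cause of these changes was not tested.

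Small differences changed sign, none of them called. With a pseudocount of 0.1 S10A4 in liver was -0.131. Under median-ratio scaling S10AC, S10AA and S10AB in lung were 0.059, 0.079 and 0.067, S10A4 in its highest minus its second tissue was -0.565 and S10A6 was -0.406; with haemoglobin left out that of S10A4 was -0.15. S10A6 in kidney was -0.006 by its leading transcript, and S10A6, S10AA and S10AB in kidney were -0.578, -0.22 and -0.267 with S0235 kept. S10A4 over all 5 tissues was 0.021. Leaving out each animal in turn gave ranges of -0.392 to 0.201 for S10A4, -0.348 to 0.513 for S10A6 and -0.186 to 0.322 for S10AB in liver; -0.371 to 0.112 for S10A8, -0.283 to 0.206 for S10AC, -0.215 to 0.051 for S10AA, -0.186 to 0.045 for S10AB and -0.148 to 0.311 for S100B in lung; -0.022 to 0.39 for S10AC and -0.033 to 0.201 for S100B in spleen; -0.412 to 0.397 for S10A6 -0.095 to 0.165 for S10AA and -0.099 to 0.279 for S10AB in kidney; and -0.019 to 0.204 for S10A4 between its highest and second tissue.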
